A study of Mus musculus with 55 samples.

Results

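Nnt, nicotinamide nucleotide transhydrogenase, was followed across the livers of 55 untreated male mice of 29 Collaborative Cross (CC) lines. The gene was found by its symbol and identifier (ENSMUSG00000025453), and it was 1 of 37620 genes and its 7 isoforms were 7 of 97251 isoforms quantified. The CC lines are recombinant inbred lines whose genomes mix those of the founder strains WSB/EiJ, CAST/EiJ, PWK/PhJ, NOD/ShiLtJ, NZO/HlLtJ, 129S1/SvImJ, C57BL/6J and A/J. Each line name (IL-72, IL-2156 and so on) stands for 1 such mosaic genome, so mice of a line share alleles at nearly all loci. Every mouse was naive, and no line served as a control. Of the lines, 8 were sampled by 1 mouse, 16 by 2 mice and 5 by 3 mice. Ages ran from 8.0 to 11.9 weeks and body weights from 12.8 to 38.0 g, and the age differed between mice of the same line in 1 line only. Genotypes were not analysed here, so which founder allele of Nnt a line carried was not tested.

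Nnt encodes an enzyme of the inner mitochondrial membrane. It lets protons back into the matrix and uses that gradient to pass hydride from NADH to NADP, which makes matrix NADPH. Matrix NADPH feeds the glutathione and thioredoxin systems that remove peroxides. C57BL/6J, one of the founders, carries a deletion of several internal exons of Nnt, whereas the other founders keep them. The mouse reference genome was made from C57BL/6J, so gene models built on it need not hold the exons that this strain lacks.

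The libraries held 20542671 to 33953036 fragments assigned to genes (median 27700357), of which Nnt took 666 to 4098 (median 2429). All 8 hepatocyte markers were expressed in the livers, and albumin (Alb) stood between 8656 and 50167 FPKM (fragments scaled to transcript length and library size). The mice labelled IL-1052 and IL-2750 were intermixed in earlier results on these data, so the main results are also given without these lines. In whole liver, fewer cells that express a gene and less of its RNA per cell cannot be told apart.

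On NCBI build 37 Nnt lies on the minus strand at chr13:120124255-120197804, and 0 other annotated genes overlap it. Nearly all of its fragments were assigned to a pair of protein-coding isoforms. ENSMUST00000099149 has 17 exons, 3464 bases and 835 codons. ENSMUST00000069902 has 15 exons, 3122 bases and 721 codons, and it differs by leaving out exon 8 (chr13:120163436-120163581) and exon 9 (chr13:120161203-120161398) of the former. These exons hold 146 and 196 bases of coding sequence. They are printed because fragments from them, or from the joins that follow exon 7, are what separate the main isoforms. In the joins, lower case is the last 30 bases of exon 7 and capitals are the first 30 bases of the exon that follows it.
exon 8: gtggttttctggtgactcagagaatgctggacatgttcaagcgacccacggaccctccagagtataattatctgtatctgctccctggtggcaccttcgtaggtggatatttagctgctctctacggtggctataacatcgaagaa
exon 9: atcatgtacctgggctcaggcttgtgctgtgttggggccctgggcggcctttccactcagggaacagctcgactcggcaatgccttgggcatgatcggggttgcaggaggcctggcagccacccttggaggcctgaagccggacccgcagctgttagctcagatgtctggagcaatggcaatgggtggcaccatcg
exon 7 joined to exon 8, in the 17-exon isoform: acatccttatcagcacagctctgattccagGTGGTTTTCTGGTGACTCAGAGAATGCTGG
exon 7 joined to exon 10, in the 15-exon isoform: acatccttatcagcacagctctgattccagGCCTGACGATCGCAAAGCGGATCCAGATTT

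A search of the annotated transcripts found exons 8 and 9 and the first join in the 17-exon isoform and not in the 15-exon isoform, and the second join the other way round. Between exons 7 and 8 lies an intron of 6901 bases, chr13:120163582-120170482. The isoforms ENSMUST00000109205 and ENSMUST00000109206 have 35 exons and 1092 codons each, and both place 18 short exons of 9 to 115 bases, 769 bases in all, inside that intron. The 3 remaining isoforms are shorter. ENSMUST00000109204 has 14 exons, ENSMUST00000133627 has 5 exons and no coding sequence, and ENSMUST00000144599 has 4 exons and no coding sequence. The last exon of the 4-exon isoform (chr13:120182279-120183635, 1357 bases) begins like exon 4 of the 17-exon isoform (218 bases) and runs on into the intron behind it.

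**Figure D1:**
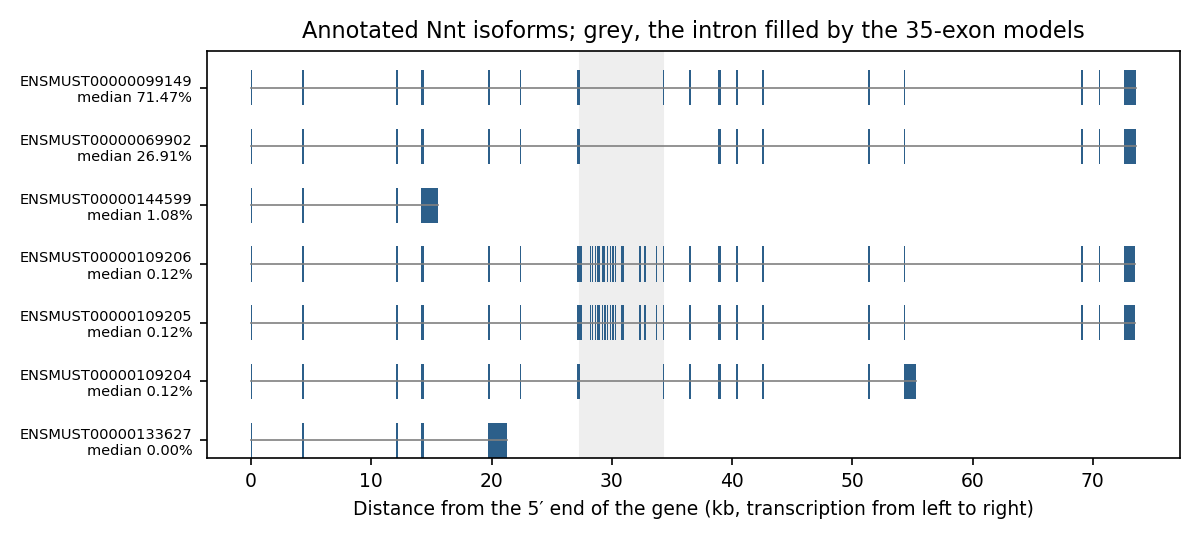
Exons of the 7 annotated Nnt isoforms (boxes) along the gene, in kb from its 5′ end, with the median share of the gene over 55 mice beside each name. The grey band is the intron in which only the 35-exon isoforms have exons. The 2 upper isoforms, which differ by exons 8 and 9, hold median shares of 71.5% and 26.9%.

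Total expression of Nnt differed among the lines by up to 3.92-fold between line means. The mean over lines was 25.6 ± 7.38 FPKM (SD, n = 29 lines). Lowest stood line IL-2156, whose 3 mice had 11.4, 9.49 and 8.38 FPKM (9.77 ± 1.54). The only mouse of IL-2689 had 11.5 FPKM. The mice of IL-3912 had 11.5 and 12.3 FPKM, and those of IL-72 had 12.5 and 11.9 FPKM. No mouse of any other line fell under 17.6 FPKM, so these 8 mice did not overlap with the 47 others.

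The next lines were IL-519 with 18.4 and 19.5 FPKM and IL-1513 with 19.5 and 21.2 FPKM. From there the line means rose in small steps to IL-785, with 28.2, 38.3 and 38.7 FPKM, and to IL-2126 and IL-1452, with 1 mouse each at 37.6 and 38.2 FPKM. Mice of the same line were mostly close, with an SD within lines of 0.20 on the log2 FPKM scale (26 degrees of freedom). The pairs farthest apart were IL-2680 (38.8 and 23.5 FPKM) and IL-1052 (17.6 and 31.7 FPKM). The 3 mice of IL-2750 had 22.8, 21.9 and 23.7 FPKM.

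When the 29 means were put in order, the step from IL-72 to IL-519 was 0.64 on the log2 scale. It was the only one of the 28 steps between neighbours that exceeded 2 standard errors of the difference, and the next largest step was 0.25. In every other step the neighbours did not differ beyond their spread. The mean of the 4 lines under the large step was 11.3 ± 1.09 FPKM (SD over lines), or 40.6% of the mean of the 25 lines above it, which was 27.9 ± 4.89 FPKM. These lines were set apart by the Nnt level itself, and putting the means in order makes neighbours close. The steps and the split are therefore a description and not a test. The same 8 mice were the lowest in TMM-normalised CPM (counts scaled to library size), with 27.6 to 40.5 against 59.0 to 135 in the other 47, and in TPM, which is scaled to the same total in every library, with 11.4 to 16.9 against 21.4 to 60.0. Their libraries (21452720 to 30283487 fragments), ages (8.1 to 10.0 weeks) and weights (22.0 to 38.0 g) overlapped with those of the other mice.

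**Figure D2:**
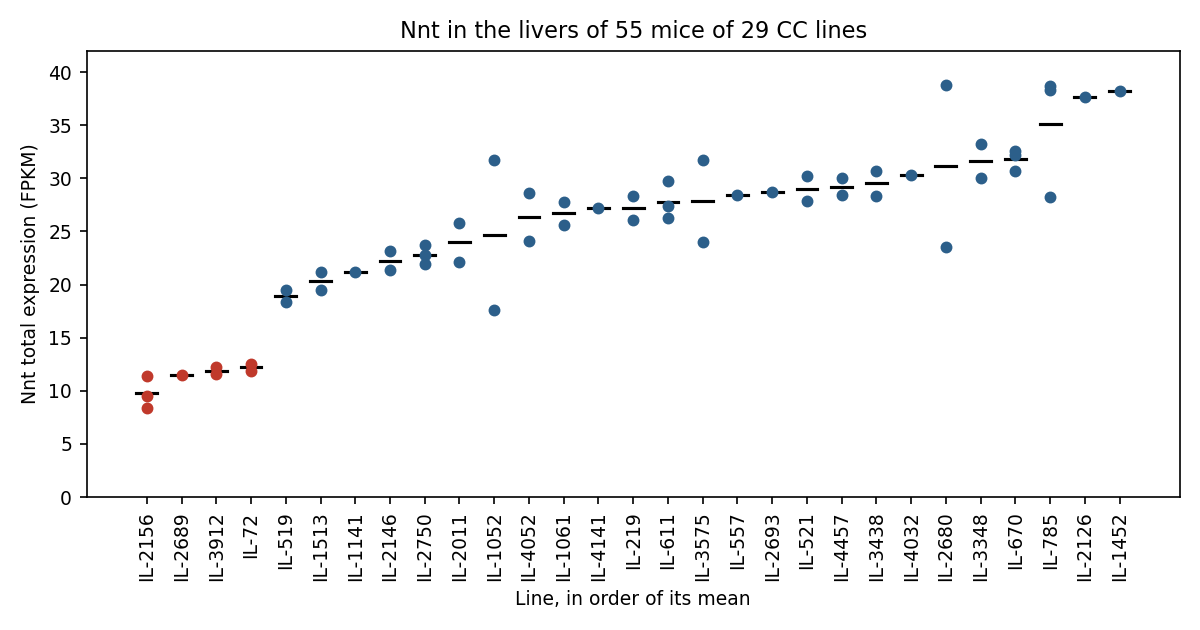
Nnt total expression in FPKM for each of 55 mice (points), by CC line in the order of the line means (bars). Red points are the 8 mice of the 4 lines under the largest step between neighbouring means, at 8.38 to 12.5 FPKM, and blue points are the 47 other mice, at 17.6 to 38.8 FPKM.

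The line accounted for much of the spread of Nnt. The intraclass correlation, the share of variance that lies between lines, was 0.627 over 55 mice (one-sided permutation test, p = 0.00019, 100000 permutations of the line labels). It was 0.651 without IL-1052 and IL-2750. In the 25 lines above the large step, a set chosen after the values were seen, it was 0.370 (permutation p = 0.0409). The study mapped nearby genetic associations of gene expression in these same mice, so the difference among lines is not independent of those associations.

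In counts, Nnt differed among the 21 lines that had at least 2 mice, with an adjusted p = 3.61e-10 in the quasi-likelihood F test of edgeR (1.57e-10 without IL-1052 and IL-2750), the 317th smallest of 15285 genes tested. Most liver genes differed among these lines, 13523 of them or 88.5%, so a call by itself sets Nnt little apart. Nnt passed an adjusted p of 0.05 in 79 of the 210 pairs of lines, or 37.6%, beside 18.0% of all gene-by-pair tests. Of the 79, 54 set IL-2156, IL-3912 or IL-72 against another line. IL-2156, IL-3912 and IL-72 were each lower than 18 of the 20 lines they were compared with, by 0.69 to 1.92 on the log2 scale. They did not pass the test against each other (0 of 3 pairs). These lines were singled out by their Nnt level, so their counts of pairs are a description and not a test. The line IL-1513 was lower than 11 lines and higher than 3. The line IL-785 was higher than 12 lines and IL-670 higher than 8. Among pairs that left out IL-2156, IL-3912 and IL-72, 25 of 153 passed (16.3%). The share of all genes in those pairs alone was not computed.

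The isoform ratio, the percentage of the transcripts of a gene that an isoform makes up, also differed among lines. It is a split among annotated models that lie on the C57BL/6J genome. RNA with exons that no model holds could not be shown as such. The 17-exon isoform held 43.4 to 89.1% of Nnt (median 71.5%) and the 15-exon isoform 5.92 to 55.2% (median 26.9%). The 15-exon share had a line mean of 28.4 ± 11.2% (SD, n = 29 lines) and an SD within lines of 7.41 percentage points. Its intraclass correlation was 0.553 (permutation p = 0.00099, adjusted p = 0.0027 over the 6 isoforms that could be tested), and 0.542 without IL-1052 and IL-2750 (permutation p = 0.00272). The largest 15-exon shares were 55.2% in the mouse of IL-557 and 53.7% in that of IL-2126, and both are lines with 1 mouse.

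In the 8 mice with least Nnt the 15-exon share ran from 5.92 to 26.4% and in the other 47 from 9.48 to 55.2%, so the ranges overlapped. Both main isoforms were low in those 8 mice. The 15-exon isoform stood at 0.74 to 2.29 FPKM against 2.01 to 20.2 FPKM in the other mice. The 17-exon isoform stood at 5.86 to 11.0 FPKM against 10.0 to 28.3 FPKM. The ranges of either isoform overlapped at their ends, whereas those of the whole gene did not.

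The 35-exon isoforms, the only models with exons inside the large intron, were assigned a small share in every line. They received the same values as each other in every mouse, at most 1.14% each and 0 in 21 mice, and their intraclass correlation was 0.387 (permutation p = 0.0478, adjusted p = 0.0574). The 14-exon isoform held at most 0.64%, with an intraclass correlation of -0.0471 (permutation p = 0.623). The 5-exon isoform was listed at 0 in 44 mice and reached 0.22%. With shares this small, these isoforms rest on few fragments a mouse, at most 29.1 for a 35-exon isoform.

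Only for the 4-exon isoform did the share in the mice with least Nnt not overlap with that in the others. Its share was 2.91, 2.49 and 3.66% in the mice of IL-2156, 3.56% in IL-2689, 4.97 and 4.16% in IL-3912, and 4.73 and 4.23% in IL-72. In the 47 other mice it ran from 0.10 to 2.20% (median 1.00%). Its own level did not separate the mice, at 0.24 to 0.59 FPKM in the 8 mice and 0.03 to 0.70 FPKM in the others. The share has the whole gene in its denominator. The intraclass correlation of the share was 0.662 on rounded rank scores (permutation p = 4e-05, adjusted p = 0.00024 over 6 isoforms). On untransformed values it was 0.849 for the share (permutation p = 2e-05) and 0.508 for the level (permutation p = 0.00301). On rank scores without rounding, the correlation for the share was 0.639 in all lines (permutation p = 0.00016). Within the 25 lines above the large step it was 0.307 on such scores (permutation p = 0.0763) and did not pass the test. The counts behind these values were small. As a share of fragments, the lowest of the 8 mice was a mouse of IL-2156 with 11 of 836, or 1.32% (95% Wilson interval 0.736 to 2.34%, counting error only). The highest of the other 47 was a mouse of IL-3438 with 31 of 2574, or 1.20% (0.850 to 1.70%), so these mice cannot be told apart by their counts. In IL-3912 the mice had 2.72% (1.93 to 3.84%) and 2.30% (1.60 to 3.31%).

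**Figure D3:**
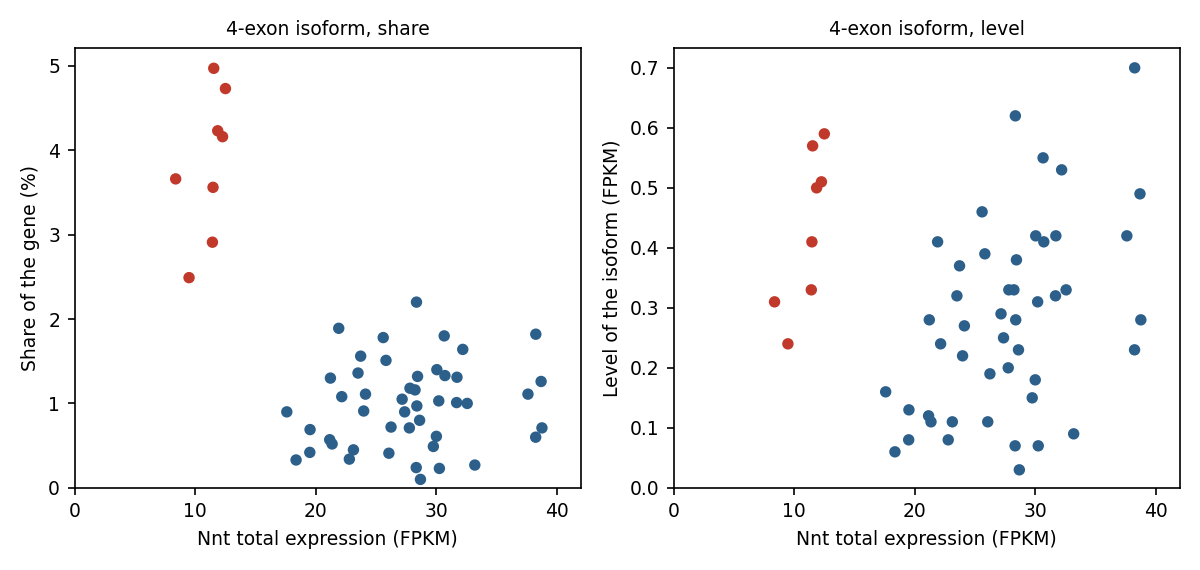
Share of the gene in percent (left) and level in FPKM (right) of the 4-exon Nnt isoform against Nnt total expression in FPKM, 1 point a mouse (n = 55). The 8 red mice of the lines under the largest step have 2.49 to 4.97% of the share axis to themselves, while their levels of 0.24 to 0.59 FPKM lie within the range of the 47 blue mice.

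Genes whose line means followed Nnt were ranked by Spearman's rho over the 29 lines, among 11283 other genes that reached 2 FPKM. The lines share founder haplotypes and 8 of them rest on a single library, so these correlations are descriptions, given without a test. Over all genes the median rho was 0.05, and 5% of genes lay under -0.27 and 5% above 0.36. Only 88 genes, 0.780% of all, had an absolute rho over 0.5. The 24 genes named are the 12 at each end. They depended on the lines, since 7 of the 24 stayed on the list in the 25 lines above the large step and 17 without IL-1052 and IL-2750. Of the 20 that could be tested, 19 differed among lines, where 88.5% of all genes did, and Pkp4 did not (edgeR adjusted p = 0.101).

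At the positive end stood Cyp2c39, a cytochrome P450 that hydroxylates retinoic acid, with rho = 0.73. Its line means were 1.64 FPKM in IL-2156, 0.59 in IL-2689 and 0.62 in IL-3912, but 38.1 in IL-72. In the 25 other lines the means ran from 13.3 to 227 FPKM (median 57.8). Mice of a line could differ widely, with 290 and 2.91 FPKM in IL-2680 and 19.1, 103 and 228 FPKM in IL-785. By line means, 3 of the 4 lines with least Nnt had least Cyp2c39 as well, and IL-72 lay inside the range of the rest. Its neighbour on chromosome 19, Cyp2c38, another P450 of the same family, had rho = 0.60. Cyp2c38 was not lowest in those lines (6.24 to 15.2 FPKM, against 1.74 to 105 in the others).

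Mrps30, a protein of the small mitochondrial ribosomal subunit, had rho = 0.58, with 9.20 to 10.5 FPKM in the 4 lines and 9.52 to 17.1 in the others. Ppa2, the mitochondrial inorganic pyrophosphatase, had rho = 0.56, and Slc25a16, a mitochondrial carrier, also had 0.56. Hao2, a peroxisomal hydroxy acid oxidase, had rho = 0.57 at very low levels (median 0.10 FPKM above the step). Pon1, a paraoxonase secreted on lipoproteins, had rho = 0.58, with 303 to 444 FPKM in the 4 lines and 265 to 586 in the rest. The remaining genes were Lass6, a ceramide synthase (0.61), Pkp4, a plakophilin of cell junctions (0.60), Hmgn1, a nucleosome-binding protein (0.58), Scoc (0.57) and Atg3, an enzyme of autophagy (0.57). For 8 of these 12 genes the highest line was IL-2126, a line of 1 mouse with 37.6 FPKM of Nnt and the smallest library, 20542671 fragments. Without IL-2126, chosen after the values were seen, 10 of the 24 named genes stayed among the 12 at their end, and rho of Cyp2c39 was 0.70.

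At the negative end, Gm10359 (rho = -0.68) stood at 17.8, 23.5, 8.68 and 26.9 FPKM in IL-2156, IL-2689, IL-3912 and IL-72, and at 0 to 9.10 FPKM in the others (median 0). Its mice did not agree within lines, with 34.0, 0.05 and 19.2 FPKM in IL-2156. Gapdh, the glycolytic glyceraldehyde-3-phosphate dehydrogenase, had rho = -0.57. Its means were 739, 744, 835 and 721 FPKM in the 4 lines, against a median of 2.28 and a range of 1.18 to 692 in the rest. A mouse above 100 FPKM of Gapdh occurred in 11 lines, the 4 lines with least Nnt among them, and in the other 18 lines no mouse exceeded 3.74 FPKM. Gapdh has many near-identical processed copies in the mouse genome, so how its reads were split between copies is uncertain. Outside the 4 lines, mice of IL-2750, IL-4052 and IL-2011 had 20.5, 18.2 and 17.3 FPKM of Gm10359. The same mice had 632, 681 and 650 FPKM of Gapdh. A mouse of IL-3912 had 0 FPKM of Gm10359 and 990 FPKM of Gapdh. Whether Gm10359 and Gapdh are separate signals was not tested.

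Further genes at this end were Nudt13 (-0.66), a Nudix hydrolase, Praf2 (-0.64), Apol10b (-0.62), Dnaic1 (-0.57), a dynein intermediate chain of cilia, the noncoding 2810408I11Rik (-0.56) and Abcb1b (-0.56), an export pump for drugs. Apol10b reached 5.39 FPKM in IL-2156 and stayed at or under 0.545 FPKM in the other lines. Abcb1b ran from 1.09 to 2.65 FPKM in the 4 lines and from 0.01 to 3.79 in the others (median 0.44). The last 4 entries, AC141881.8, n-R5s118, n-R5s106 and n-R5s130, are rRNA copies with the same values in every line and count as 1 signal (rho = -0.55).

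**Figure D4:**
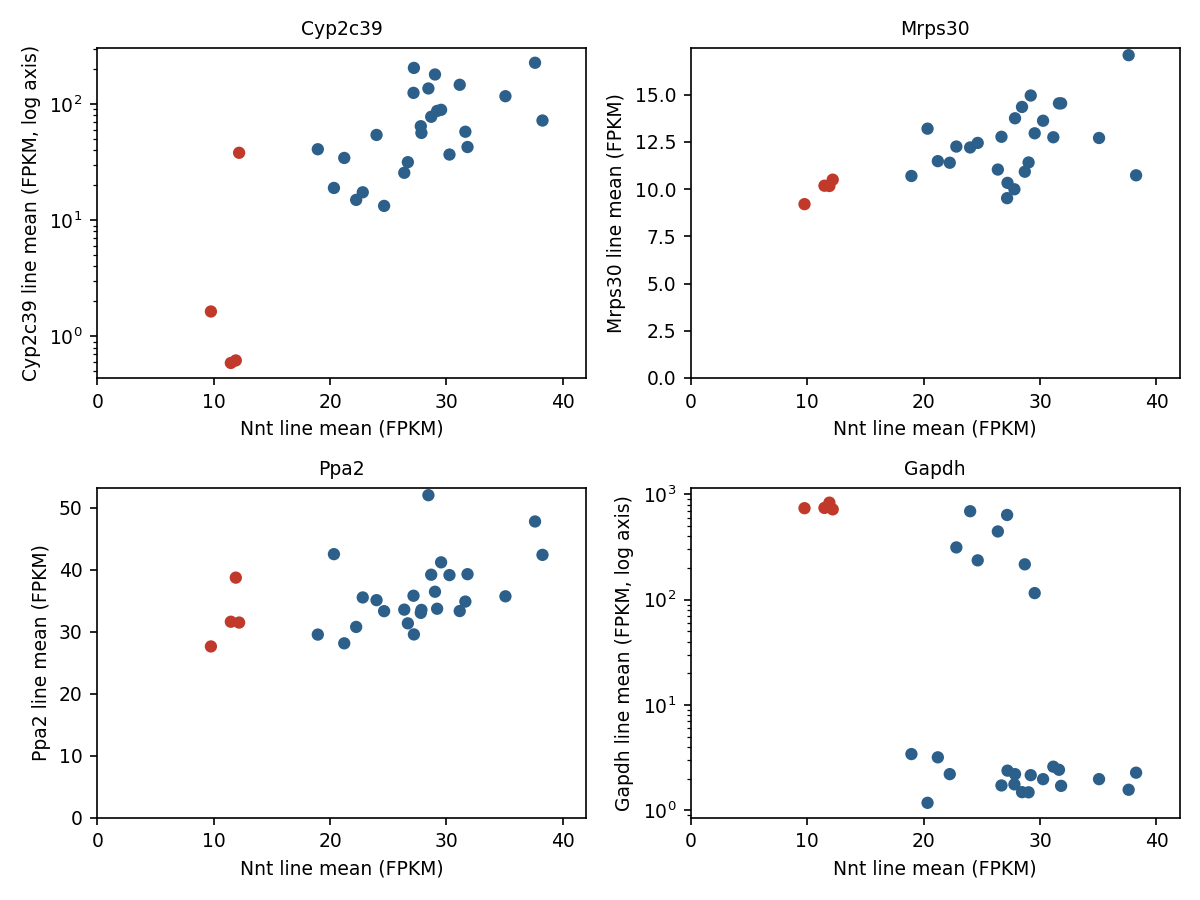
Line means in FPKM of Cyp2c39, Mrps30, Ppa2 and Gapdh against Nnt line means in FPKM (29 lines, 1 point each). Red points are the 4 lines with least Nnt. The axes of Cyp2c39 and Gapdh are logarithmic, and Cyp2c39 lies under 2 FPKM in 3 red lines while Gapdh exceeds 700 FPKM in all 4.

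On chromosome 13, 8 other genes within 5 Mb of Nnt passed the same filter, and all 8 differed among lines, where 88.5% of all genes did. Distances were taken between the lower coordinates of the genes, which for Nnt, on the minus strand, is its 3′ end. As neighbours they may be inherited together with Nnt, which was not tested. Their median rho was 0.28, with a range from -0.12 to 0.58, against a median of 0.08 for 396 genes farther away on the chromosome. Mrps30 lies at -0.955 Mb from Nnt by this measure and was the only one of the 24 named genes on this chromosome. Paip1, a binding partner of the poly(A)-binding protein, lies 0.0932 Mb away by the same measure. It had rho = 0.42, with 17.7 to 29.6 FPKM in the 4 lines and 14.0 to 39.7 in the others. Mocs2, for molybdenum cofactor synthesis, had 0.35, Gm7120 0.29, 4833420G17Rik 0.26 and Itga1, an integrin subunit, 0.19. Pelo had 0.07 and Fst, the activin antagonist follistatin, -0.12. The 4833420G17Rik means were 6.03 to 7.34 FPKM in those lines, above the median of 2.87 FPKM in the others but inside their range of 0.68 to 7.87 FPKM.

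The genes around Nnt in metabolism were read from lists on mitochondrial NADPH, peroxide defence and respiration. Of 69 listed, 67 were found and tested, and 66 differed among lines, where 88.5% of all genes did.

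Other sources of mitochondrial NADPH differed among lines in 6 of 6 cases, and their rho with Nnt had a median of 0.12 over the 4 with a sufficient level. Idh2, the mitochondrial NADP-dependent isocitrate dehydrogenase, had rho = 0.32. Its means were 26.6, 62.3, 42.3 and 37.1 FPKM in IL-2156, IL-2689, IL-3912 and IL-72, against 28.7 to 73.6 in the others. So IL-2156 was the lowest of all lines in Idh2, and IL-2689 was well above the median of 37.4 FPKM. Glud1, glutamate dehydrogenase, had rho = 0.23, Mthfd2, of mitochondrial folate metabolism, 0.01, and Me3, a mitochondrial malic enzyme, -0.04. The Me3 means were 0.53, 1.53, 1.43 and 0.90 FPKM in the 4 lines.

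Peroxide and thiol defence in mitochondria, which spends that NADPH, differed among lines in 9 of 9 genes and in 8 without IL-1052 and IL-2750. The median rho was 0.22, from -0.05 for Gsr, glutathione reductase, and -0.04 for Prdx3, a mitochondrial peroxiredoxin, to 0.32 for Sod2, the manganese superoxide dismutase, and 0.37 for Txn2, mitochondrial thioredoxin. NADPH sources in the cytosol and endoplasmic reticulum differed in 7 of 7 genes with a median rho of -0.04. Me1, the cytosolic malic enzyme, had 0.23 and Idh1 0.19, whereas G6pdx and Pgd, both of the pentose phosphate pathway, had -0.23 and -0.16. Genes of NAD and NADP synthesis and use differed in 9 of 9 cases with a median of 0.07. Sirt3, a mitochondrial deacetylase, had 0.35, Nampt, the rate-limiting enzyme of NAD salvage, 0.27, Nadsyn1, NAD synthetase, -0.08 and Qprt, of NAD synthesis from tryptophan, -0.32.

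In the tricarboxylic acid cycle 16 of 17 genes differed among lines, and Cs, citrate synthase, did not (edgeR adjusted p = 0.114), against 15 of 17 without IL-1052 and IL-2750. The median rho was 0.17. Sucla2, a subunit of succinyl-CoA synthetase, had 0.43 and Sdha, of succinate dehydrogenase, 0.42, while Cs had -0.13 and Idh3a, of the NAD-dependent isocitrate dehydrogenase, -0.10. The Sucla2 means were 58.0, 72.6, 71.2 and 64.2 FPKM in the 4 lines with least Nnt, and IL-2156 was the lowest of all lines.

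The respiratory chain and outer membrane list differed in 19 of 19 genes and had a median rho of 0.29, against 0.05 over all genes. All 19 rho values were above 0, from 0.08 for Ndufs7 and 0.15 for Ndufv1 to 0.41 for Ndufv2, all subunits of complex I. In the 25 lines above the large step the list median was 0.18, the same as for the tricarboxylic acid cycle and under the 0.21 of the peroxide and thiol defence list, and that of all genes was 0.08. The summed level of the hepatocyte markers had rho = 0.32 with Nnt, beside 0.31 for the sum of the respiratory list. The 8 hepatocyte markers themselves did not agree, with rho from -0.44 to 0.49 and 5 of them above 0. Their median was 0.04 in the 25 lines above the large step. A mouse of IL-2156 held the lowest sum of both lists, 22105 FPKM of hepatocyte markers and 2088 FPKM of the respiratory list, and the lowest Alb value, 8656 FPKM. The part of liver-wide differences in these correlations was not tested.

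**Figure D5:**
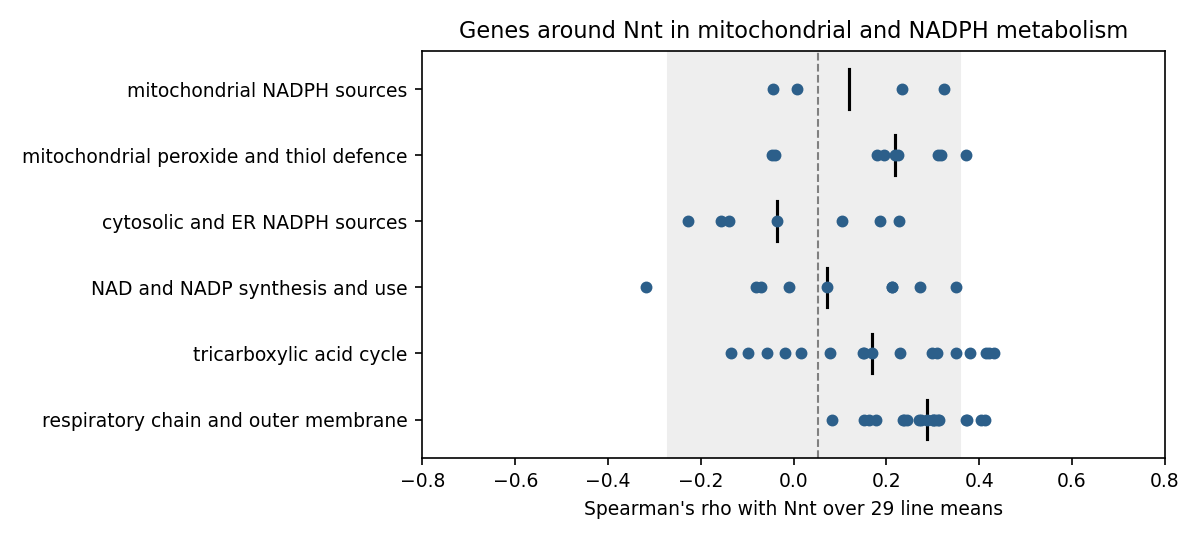
Spearman's rho with Nnt over 29 line means for the members of 6 metabolic lists (points), with the list median as a bar. The dashed line is the median of all genes, 0.05, and the grey band spans the 5% to 95% range of all genes, -0.27 to 0.36. All 19 genes of the respiratory list lie above 0.

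Markers of other cells were low beside those of hepatocytes, and their summed levels overlapped between the 8 mice of the 4 lines and the other 47. Markers of Kupffer cells and leukocytes summed to 20.8 to 161 FPKM in the 8 mice and 8.89 to 158 in the others. Those of stellate cells and fibroblasts summed to 30.7 to 130 and 11.2 to 108, of endothelium to 25.3 to 50.6 and 13.0 to 71.0, and of bile duct cells to 20.1 to 208 and 6.50 to 136 FPKM. Red cell markers summed to 695 to 4528 and 446 to 4174, adipocyte markers to 7.98 to 92.4 and 2.01 to 187, and pancreas and gut markers to 40.8 to 137 and 51.6 to 253 FPKM. No marker was at 0 in all mice. Over the 29 lines the rho of these sums with Nnt ran from -0.20 for red cell markers to 0.28 for pancreas and gut markers.

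Nnt was also compared with body weight, age and library size over the 25 lines above the large step. None of the 3 relations passed a permutation test. For body weight r = -0.100 (p = 0.634, adjusted p = 0.634, permutation) and Spearman's rho = -0.05 (permutation p = 0.821, adjusted p = 0.821). For age r = 0.351 (permutation p = 0.0852, adjusted p = 0.152) and rho = 0.28 (permutation p = 0.177, adjusted p = 0.411). For library size r = -0.335 (permutation p = 0.101, adjusted p = 0.152) and rho = -0.23 (permutation p = 0.274, adjusted p = 0.411). Without the 2 lines farthest from the median of the measure, r was -0.03, 0.40 and -0.20. Because no batch of sequencing or library preparation is named in the labels, within-batch values could not be given.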

How the data were processed

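Polyadenylated liver RNA of 55 mice was sequenced by the authors from a stranded kit and quantified with RSEM 1.2.18 on NCBI build 37 and an Ensembl annotation. RSEM was run by the authors with Bowtie 2 and default parameters, which do not use strand. The deposited values are, for each gene and isoform, an expected count (an estimated count, whole or not), TPM and FPKM, none filtered or pooled across mice. The isoform ratio is the deposited percent of a gene held by each isoform (IsoPct).

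Here expected counts were rounded and tested in edgeR 4.0.16 (R 4.3.3) with TMM scaling, its expression filter, a trended dispersion and a quasi-likelihood F test over the 21 lines with at least 2 mice, and for each pair of those lines, with Benjamini-Hochberg adjustment within each test. Intraclass correlations used van der Waerden scores of FPKM or percent rounded to bins of at least 0.5, or the maximum divided by 200, with permuted line labels (one-sided, 100000 permutations, smallest possible p 1e-05). These are scores of ranks, and untransformed values or unrounded ranks were used where named. Alternatives used DESeq2 1.42.0, limma 3.58.1 on log2(FPKM + 1), other units and filters, and fewer lines or mice. The steps were tested on simulated data.

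Named were Nnt and its isoforms, the 12 genes at each end of Spearman's rho with Nnt over the 29 line means (maximum FPKM of at least 2), up to 10 neighbours within 5 Mb, and the 2 highest and 2 lowest members of each list with any that did not differ. A result under this rule is not reported here. Gene, list and rules were chosen with earlier results of these data known. Sequences and positions come from the NCBI build 37 genome and its Ensembl release 65 annotation, an earlier release than the one the authors quantified on. All 7 Nnt isoforms had the same length in both. Array genotypes used in the study were not used here. Wilson intervals cover counting error only.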

Additional observations from a re-analysis of the deposited data

How the results depend on the processing

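The difference of Nnt among lines kept its direction and stayed past its threshold in the alternatives run. The intraclass correlation of total expression ran from 0.370 (the 25 lines above the large step, chosen after seeing the data) to 0.855 (log2 scale), and from 0.601 to 0.744 without each of the 47 mice of lines with at least 2 mice in turn. The fold between the extreme line means ran from 3.59 to 4.26 over other units and line sets, and from 3.66 to 4.28 without each of the same 47 mice, which left the single mice of IL-1452 and IL-2126 in place. The edgeR adjusted p ran from 7.45e-11 to 4.11e-09 without each of 26 mice drawn at random, with 13321 to 13756 genes called, and DESeq2 gave 1.28e-62. The intraclass correlation of the 15-exon isoform ratio ran from 0.521 to 0.626 without each of the 47 mice, and was 0.542 without IL-1052 and IL-2750. The single mice with the largest 15-exon shares, of IL-557 and IL-2126, were not among those left out. With the 14-exon isoform in its place it was -0.0471 (permutation p = 0.623), an isoform of at most 0.64% of the gene. The list of genes most like Nnt was less stable. Of its 24 genes, 7 stayed on the list under Pearson correlation of log2 values, 15 with a maximum FPKM of at least 10, 8 in lines with at least 2 mice, 7 in the 25 lines above the large step and 10 without IL-2126, the last 2 sets chosen after seeing the data. The cause was not tested. Of the 67 genes on the metabolic lists, 64 to 67 differed among lines under the alternatives. No paired analysis was possible because the labels give the lines no shared replicate numbers. With 8 lines of 1 mouse and 666 to 4098 fragments of Nnt a mouse, depth limits the rare isoforms most.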
